A study of Rattus norvegicus with 6 samples.

Results

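The regions described here are 568 stretches of the rat genome whose ratio of methylated to input DNA was high on each of the 6 arrays of the study. They were taken from 16123 tiled regions, which were formed by joining array probes with gaps of at most 1000 bp. A probe was used where its input signal was well above background on all 6 arrays and its spot was marked as uneven or as an outlier on none. The log2 ratio of immunoprecipitated (Cy5) over input (Cy3) signal was centred on the median of these used probes on each array. A region was chosen where it lay on chromosomes 1 to 20, held at least 3 used probes and had a mean ratio of at least 0.5 on every array. Of 11924 regions that could meet these terms, 568 did, or 4.76%.

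The study asked how exposure of pregnant rats to fine airborne particles (PM2.5) relates to DNA methylation in the hearts of their offspring. Per the sample labels, cardiac muscle came from newborn Sprague-Dawley (SD) rats at day 1, while the extraction text speaks of fetal hearts, so the age of the tissue is not settled. The mothers of the 3 control samples received saline through a catheter into the trachea while pregnant, under ether. Those of the 3 PM2.5 samples received the same volume of a particle suspension, whose concentration is not given for these samples. All animals were of the same strain, no genetic alteration is named, and the sex of the pups is not given. The labels call the samples of a group biological replicates without saying whether they came from separate litters, so a p-value here reflects only how these samples vary, which may be technical. Tissue identity was not checked, since the arrays measure DNA and no transcript.

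In mammals, methyl groups are attached mainly to cytosines that precede a guanine (CpG sites). Most CpG sites of the genome carry the mark, while dense clusters of CpG sites at many gene starts are usually free of it. In methylated DNA immunoprecipitation an antibody to methylated cytosine pulls down single-stranded fragments, which are then hybridised beside the input DNA. The captured amount rises with the number of methylated CpG sites in a fragment, so a methylated fragment that holds few CpG sites gives little signal. The ratio also depends on how each probe hybridises, so 1 region's ratio is not set against another's as more or less methylation.

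Marked spots made up 35.8% of the array of PM2.5 replicate 1 and between 0.341% and 2.21% of the remaining 5. The used probes therefore exclude many spots for the sake of this array, and results without it are given beside those that include it. Controls 2 and 3 shared a scan identifier in the file headers, which was taken here as the slide, though no label names slides. The 3 scanning days held control 1 with PM2.5 replicate 3, controls 2 and 3 with PM2.5 replicate 2, and PM2.5 replicate 1 alone. The number of arrays limits the precision.

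The ratio of the chosen regions was high by construction, so their levels are given as a description. On the control arrays the median over the 568 regions was 0.84, 1.01 and 1.03 on the log2 scale. On the PM2.5 arrays it was 0.85, 0.71 and 0.70. PM2.5 replicate 1 lay with control 1, and PM2.5 replicates 2 and 3 lay below each control array. Averaged over arrays, these medians came to 0.96 ± 0.10 (SD, n = 3) for control and 0.75 ± 0.083 (SD, n = 3) for PM2.5. Over all 11924 regions the array medians ran from -0.15 to -0.059. Single regions among the 568 reached 1.27 on the array with the lowest maximum, PM2.5 replicate 3, and 1.78 on the array with the highest, control 3.

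**Figure D1:**
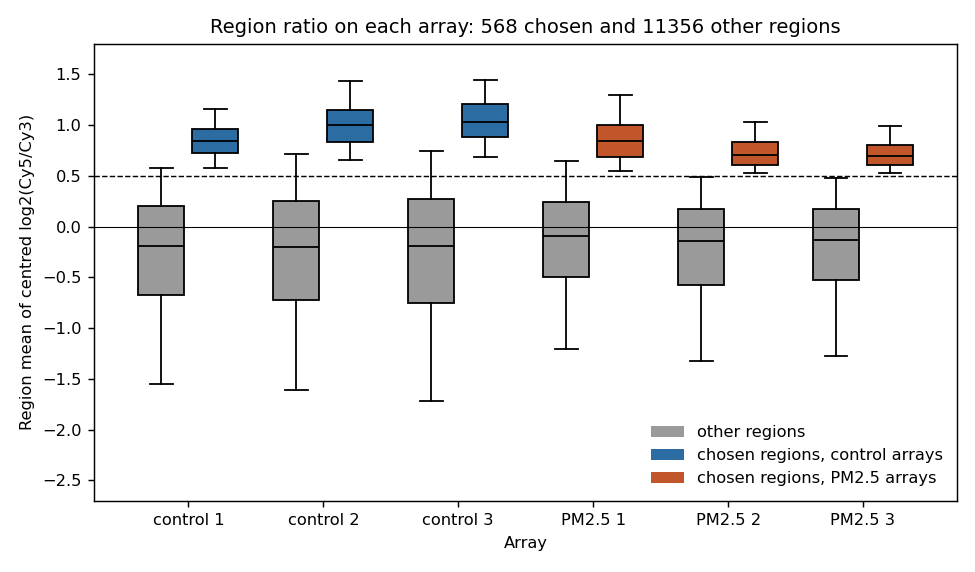
Region means of the centred log2 ratio of Cy5 over Cy3 on each array, for the 568 chosen regions (coloured) and the 11356 other regions that could have been chosen (grey). Boxes span the quartiles, the line is the median, whiskers reach the 5th and 95th percentiles, and the dashed line is the threshold of 0.5. The chosen regions have medians of 0.70 to 1.03, and PM2.5 replicates 2 and 3 sit lowest.

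The array that limited the choice was mostly one of the PM2.5 arrays. A region's lowest value was on PM2.5 replicate 3 in 229 of the 568 regions, on PM2.5 replicate 2 in 199 and on PM2.5 replicate 1 in 89. It was on a control array in the remaining ones, with 36 on control 1, 10 on control 2 and 5 on control 3. The highest value was on control 3 in 273 regions and on control 2 in 157. A further 379 regions reached 0.5 on exactly 5 arrays, and the array below it was PM2.5 replicate 3 in 139, PM2.5 replicate 2 in 128 and PM2.5 replicate 1 in 81. The 3 control arrays all reached 0.5 in 1302 regions, of which 568, or 43.6%, did so on all 6 arrays. The 3 PM2.5 arrays all reached it in 610, of which the same 568, or 93.1%, did so. There were 141 regions at 0.5 on the 3 control arrays and on no PM2.5 array, and 5 of the opposite kind.

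At the threshold itself the values were close. Just inside it, a region on chromosome 15 from 61060281 to 61061997 had its lowest value, 0.50026, on PM2.5 replicate 2. A region on chromosome 1 from 159735081 to 159736698 had 0.50065 and one on chromosome 3 from 59346012 to 59347610 had 0.50147, both on PM2.5 replicate 3. Just outside it, a region on chromosome 12 from 34671091 to 34672751 reached 0.49849 and one on chromosome 5 from 136309888 to 136311344 reached 0.49767, both on control 1. A region on chromosome 6 from 27117025 to 27118735 reached 0.4976 on PM2.5 replicate 3.

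A high ratio can come from a bright Cy5 signal, a dim Cy3 signal or both. At the used probes of the chosen regions, median log2 Cy5 was above that of all regions that could be chosen by 0.79, 0.89 and 0.95 on the control arrays and by 0.63, 0.74 and 0.64 on the PM2.5 arrays. With probe lengths pooled, median log2 Cy3 differed less, by -0.19 to -0.013 over the 6 arrays. Among 45 nt probes alone, log2 Cy5 was higher by 0.27, 0.32 and 0.34 on the control arrays and by 0.19, 0.23 and 0.15 on the PM2.5 arrays. Log2 Cy3 at these probes was lower, with differences of -0.24, -0.29 and -0.26 on control arrays and -0.31, -0.23 and -0.29 on PM2.5 arrays. At 45 nt the Cy3 difference was thus close in size to that of Cy5 on the control arrays, and larger on the PM2.5 arrays. Among longer probes Cy5 was higher by 0.72 to 1.09 and Cy3 differed by -0.25 to -0.015. Cy5 was well above background at 95.6% to 99.6% of these probes, against 71.3% to 82.7% at the used probes of all regions that could be chosen. No spot of the chosen regions was saturated in either channel. At 45 nt both a brighter Cy5 and a dimmer Cy3 signal went with the high ratio, and at longer probes mainly a brighter Cy5 signal.

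The 10 regions of highest mean ratio ranged from 1.25 to 1.55 over the 6 arrays. The highest lay on chromosome 11 from 29625759 to 29627311 (rn4). Its ratio was 1.61, 1.57 and 1.76 on the control arrays and 1.71, 1.43 and 1.24 on the PM2.5 arrays, so the groups overlapped. The second was also on chromosome 11, from 84863017 to 84864754, with 1.38, 1.72 and 1.78 on control arrays and 1.43, 1.28 and 0.94 on PM2.5 arrays. The groups overlapped there too, through PM2.5 replicate 1. Next came chromosome 15 from 21283960 to 21285304, with 1.58, 1.74 and 1.496 on control arrays and 1.33, 1.05 and 1.27 on PM2.5 arrays. Here each PM2.5 array was below each control array, which held for 3 of the 10, against 36.1% of the 568 and 10.4% of all regions tested. None of the 10 passed the test of PM2.5 against control, with changes from -0.41 to -0.10 and adjusted p from 0.086 to 0.713 (limma, Benjamini-Hochberg over 14786 regions).

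The remaining regions among these 10 lay on chromosome 7 from 60937383 to 60939107, chromosome 5 from 171762569 to 171764234 and chromosome 11 from 28105954 to 28107707. Next came chromosome 14 from 57323399 to 57325146, chromosome 3 from 147265730 to 147267153, chromosome 14 from 63183407 to 63185122 and chromosome 7 from 11103038 to 11104281. Chromosome 11 held 3 of the 10 and chromosomes 7 and 14 held 2 each. The widest gap within a group was on chromosome 14 from 57323399, where PM2.5 replicate 1 had 1.71 and PM2.5 replicates 2 and 3 had 1.01 and 0.76. Each of the 10 rested on 3 or 4 used probes, all of 45 nt, the shortest length on the array, in 6 of them. All 10 also met the terms when each probe length was centred by itself, 9 when each array was centred on its own unmarked probes, and 8 in the authors' deposited log2 values. Genes are not named, because the probes carry only positions on rn4, and no gene table of that build was used here.

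**Figure D2:**
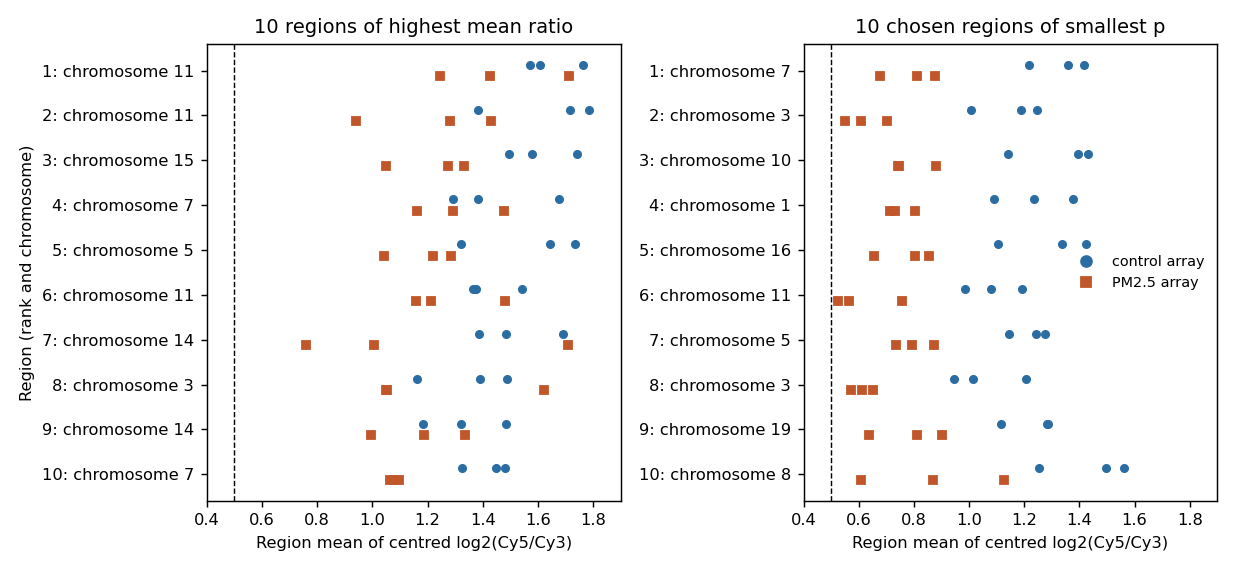
Region means of the centred log2 ratio on each array for the 10 chosen regions of highest mean ratio (left) and the 10 of smallest unadjusted p for PM2.5 against control (right), each named by rank and chromosome. Circles are control arrays, squares are PM2.5 arrays and the dashed line is the threshold of 0.5. On the right, where the choice by p favours it, each PM2.5 array lies below each control array in 10 of 10 regions. On the left this holds in 3 of 10, against 36.1% of the 568 and 10.4% of all regions tested.

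Probe length went with membership. Probes on this array were 45 to 60 nt long, and 45 nt probes had the highest ratios. Of the 2318 used probes in the chosen regions 72.0% were 45 nt long, against 40.3% of the 61870 used probes in all regions that could be chosen. Only 1.42% were 60 nt long, against 9.93%. Among regions whose used probes were all of 45 nt, 163 of 795 were chosen, or 20.5%. The share was 9.30% for a mean length over 45 and up to 47 nt, 3.11% up to 50 nt, 0.653% up to 54 nt, and 0 of 1117 regions above that. When each probe length was centred by itself, 407 regions met the terms, and 188 of these were among the 568. The rest of the 568 did not meet them on that scale. In the 188, a median of 60% of used probes were of 45 nt, against 80% in the rest. Size and tiling did not go with it in the same way, since the median region was 1674.5 bp long with 10 probes, 4 of them used, against 1673 bp, 10 and 4 over all regions that could be chosen. Exactly 3 used probes, the fewest allowed, were present in 227 chosen regions, or 40.0%, against 27.9% of all regions that could be chosen.

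**Figure D3:**
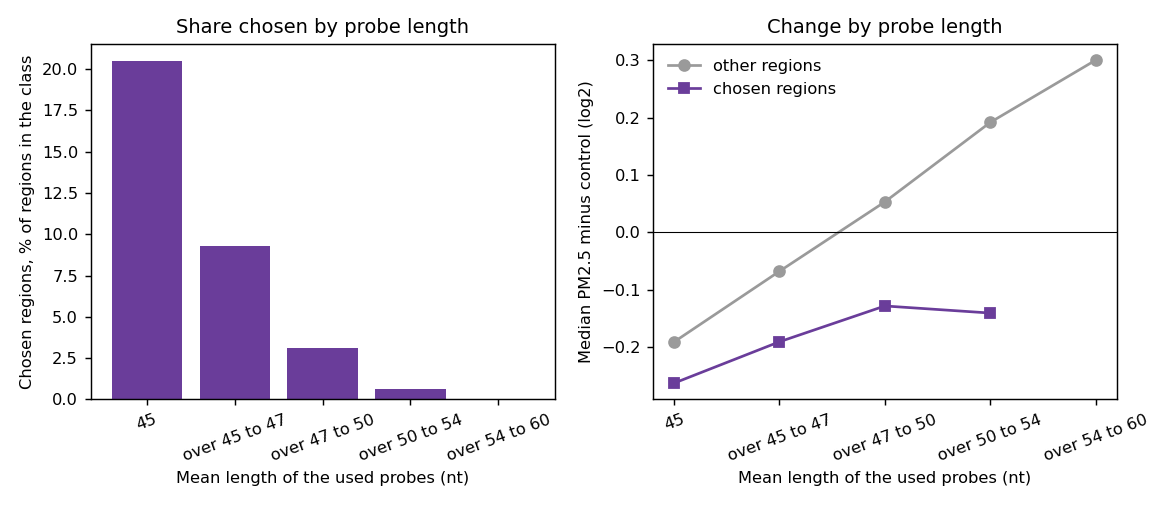
Left, the percentage of regions chosen in each class of mean used-probe length, from 20.5% at 45 nt to 0 above 54 nt. Right, the median PM2.5 minus control difference in log2 ratio of the chosen (squares) and other regions (circles) in each class. Other regions run from -0.19 at 45 nt to 0.30 above 54 nt, and chosen regions lie between -0.26 and -0.13. The chosen and other regions of a class differ in level.

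Probes inside the same regions that the choice did not use gave a separate reading. There were 1999 probes in the 568 regions with input well above background on all arrays that had been set aside because of a mark on PM2.5 replicate 1 alone, and they were read on the other 5 arrays. Their median ratio was 0.61, 0.76 and 0.81 on the control arrays and 0.48 and 0.58 on PM2.5 replicates 2 and 3. In the other regions the 39062 probes set aside in the same way had medians of 0.51, 0.66 and 0.68 on control arrays and 0.40 and 0.48 on PM2.5 arrays. The chosen regions were therefore higher by 0.079 to 0.13 at set-aside probes, while at used probes they were higher by 0.76 to 1.16 over the 6 arrays. Among probes of 45 nt alone the difference was 0.065 to 0.12 at set-aside probes and 0.48 to 0.64 at used ones. These gaps are not like readings, since the choice itself fixed the gap at used probes. Set-aside probes also had high ratios in regions that were not chosen. There, probes over 45 nt had array medians of 0.31 to 0.45 when set aside and -0.62 to -0.33 when used. Of all set-aside probes 76.2% were 45 nt long, against 40.2% of all used ones. The label "strongly captured" thus rests on the probes that chose the regions, and at their set-aside probes the excess over other regions was small.

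**Figure D4:**
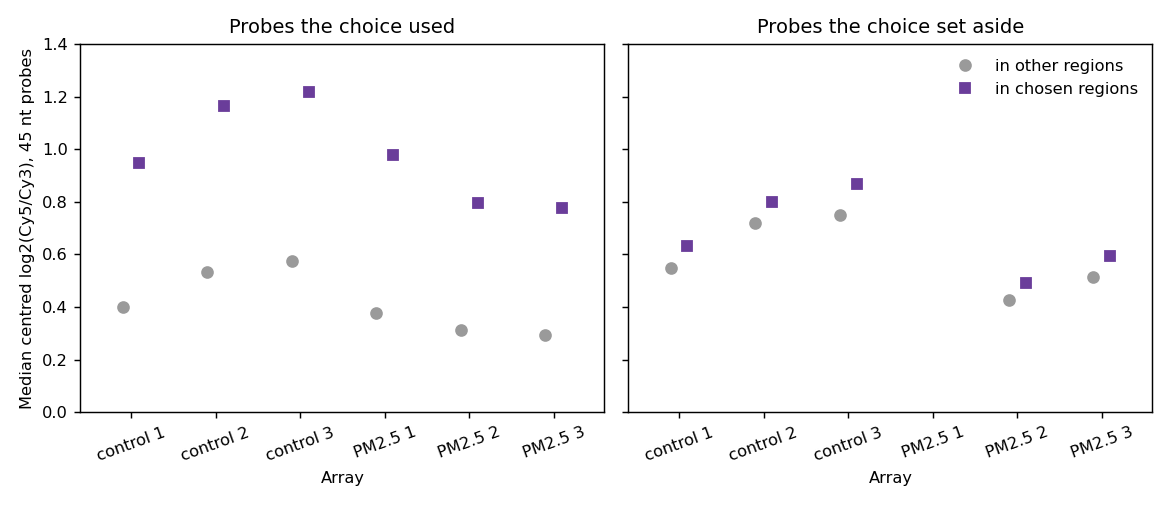
Median centred log2 ratio of 45 nt probes on each array in the chosen regions (squares) and the other regions that could be chosen (circles), at used probes (left) and at probes set aside for a mark on PM2.5 replicate 1 (right, where that array has no value). The distance between squares and circles is 0.48 to 0.64 on the left and 0.065 to 0.12 on the right.

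The same was seen region by region. Of the chosen regions, 507 held at least 2 set-aside probes, with a median of 4. Their set-aside mean reached 0.5 on all 5 arrays in 186 regions, or 36.7%, and it did so in 29.4% of 8965 other regions. It was above 0 on all 5 arrays in 90.1% and 82.5%. Over the mean of the 5 arrays, the set-aside level of chosen regions had a median of 0.61 with quartiles of 0.39 and 0.83, and that of other regions had 0.53, 0.28 and 0.76. Used and set-aside levels correlated at r = -0.012 across the 507 chosen regions and at 0.21 across 9472 regions that could be chosen (Pearson, as a description, since probes of a region share its libraries). Within the chosen regions, a higher level at used probes did not go with a higher level at set-aside ones. The choice narrowed the range of used levels, which enters this value, so the 2 correlations are not on a like footing. The chromosome 15 region from 21283960 showed the widest contrast of the 10 highest, with used means of 1.05 to 1.74 on those 5 arrays and set-aside means of -0.44 to -0.12 at 2 probes. In 8 of the 9 regions of highest ratio that had such probes, the set-aside mean was below the used mean on all 5 arrays.

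The spread within a region comes from the same probe values that chose the regions and is given as a description. The median standard deviation over the used probes of a region was 0.48, against 0.87 over all regions that could be chosen, and 79.2% of used probes had a mean of at least 0.5 over the 6 arrays. Still, 134 of the 2318 used probes had a mean below 0. Along a region the level was nearly flat, with medians of 0.84, 0.97, 0.92, 0.93 and 0.85 in 5 successive stretches of equal share of its length. The outer stretches were lowest, and over all regions that could be chosen they were lowest too, at -0.046 and -0.040.

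The arrays ordered the chosen regions only partly alike. Pearson correlations between arrays across the 568 regions were 0.51 to 0.83 for the 10 pairs without PM2.5 replicate 1. The highest was for controls 2 and 3, which shared a scan identifier. Correlations were 0.36 to 0.43 for pairs with PM2.5 replicate 1. Across all 11924 regions the pairs correlated at 0.88 to 0.98. The narrower range of levels among chosen regions enters these values.

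When the choice was made on 5 arrays, the array left out reached 0.5 in most of the regions. This share was 96.3%, 99.8% and 98.6% for controls 1, 2 and 3, and 87.5%, 81.6% and 80.3% for PM2.5 replicates 1, 2 and 3. Over all regions that could be chosen, 8.84% to 18.0% reached 0.5 on an array. The used probes had been filtered on all 6 arrays, the array left out included.

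The comparison of exposed with unexposed offspring was fitted over all 14786 regions with at least 2 used probes, as PM2.5 minus control. Of the 568 chosen regions 529, or 93.1%, had a lower mean ratio in PM2.5, against 42.3% of all regions tested. The median difference was -0.19, with quartiles of -0.30 and -0.098, and 0.050 over all regions tested. This difference ran with the level of a region and was not particular to the chosen ones. The highest decile of mean ratio over all regions tested held 1479 regions, 564 of them chosen. In that decile 91.4% were lower in PM2.5, with a median difference of -0.21, against 4.33% and 0.39 in the lowest decile. All PM2.5 arrays were under all control arrays in 205 chosen regions, or 36.1%, against 10.4% of all, and above each in 1 region against 20.9% of all. At an adjusted p under 0.05 (limma), 3 of the 568 were lower, against a background of 0.216%, and 0 were higher, against 2.16%. At an unadjusted p under 0.05, 176 were lower and 0 higher, against 7.99% and 18.1% of all regions tested. Called in either direction were 2.38% of all regions tested. The choice used these same arrays. It kept 568 of the 1302 regions at 0.5 on the 3 control arrays, and 568 of the 610 at 0.5 on the 3 PM2.5 arrays. Those left out included the 141 that reached 0.5 on the control arrays alone. The counts therefore describe the regions as chosen.

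The size of the difference, and in 1 setting its sign, moved with how the arrays were brought to a common scale. It stayed lower in PM2.5 with each probe length centred by itself (median -0.10, 76.6% lower) and with normexp background correction (-0.14, 89.6% lower). The same held with both channels well above background (-0.10, 76.0% lower). In each, 0 chosen regions passed, but 0 of all regions tested passed either (limma). At an unadjusted p under 0.05 (limma), 79, 150 and 87 chosen regions were lower and 2, 1 and 2 higher. Over all regions 1124 of 14786, 1160 of 14786 and 796 of 11776 were lower, and 1369, 1376 and 1332 higher. Centring each array on its own unmarked probes raised every difference by the same amount, and the median difference of the chosen regions became -0.0023. In that setting 0 chosen regions passed in either direction, against 0.0473% of all regions as lower and 9.79% as higher (limma). At an unadjusted p under 0.05 (limma), 6 were lower and 2 higher, against 92 and 4805 of all 14786. With scale normalization the median was 0.023, with quantile normalization -0.023 and in the authors' deposited log2 values -0.026. In each, 0 chosen regions and 0 of all regions tested passed (limma). At an unadjusted p under 0.05 (limma), 8, 15 and 17 chosen regions were lower and 8, 4 and 5 higher. Over all 14786 regions 505, 794 and 328 were lower, and 718, 742 and 1061 higher. The standard deviation over all regions that could be chosen was 0.71, 0.77 and 0.80 on the control arrays and 0.62, 0.61 and 0.59 on the PM2.5 arrays. Expressed in this standard deviation, the median level of the chosen regions was 1.18, 1.31 and 1.28 on control arrays and 1.38, 1.17 and 1.18 on PM2.5 arrays, where the groups overlapped.

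**Figure D5:**
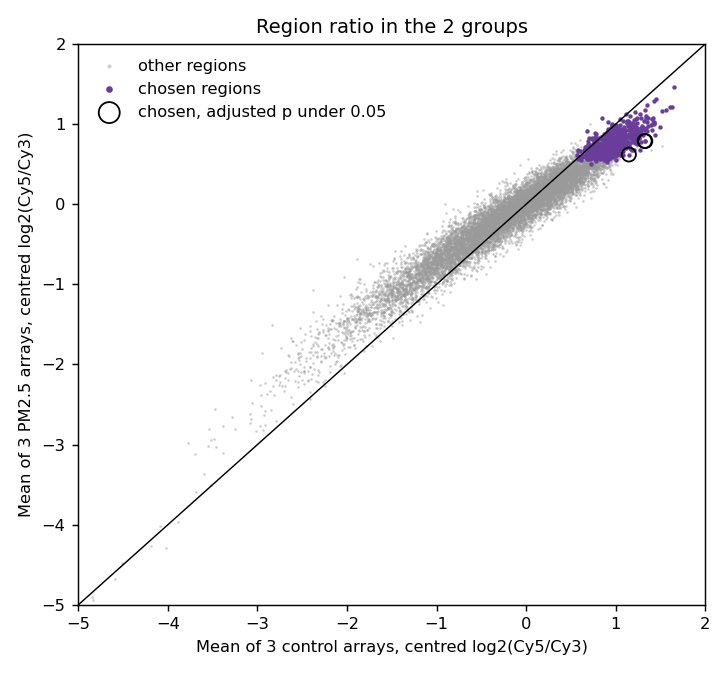
Mean ratio of each region over 3 PM2.5 arrays against its mean over 3 control arrays, for the 568 chosen regions (purple) and the 11356 others that could be chosen (grey); the line marks equal values and circles mark the 3 chosen regions with an adjusted p under 0.05, 2 of which nearly coincide. Chosen regions lie below the line in 529 of 568 cases, while most regions of low ratio lie above it.

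Among the shortest probes, lower values in PM2.5 were also seen in regions that were not chosen. Among regions with 45 nt used probes alone that were not chosen, the median difference was -0.19 and 85.3% were lower in PM2.5. For the 163 chosen regions of that kind these values were -0.26 and 97.5%. At greater lengths the differences of chosen and other regions moved apart, and so did their levels. With a mean probe length over 47 and up to 50 nt the median level was 0.81 in chosen regions and -0.077 over all that could be chosen. Over 50 and up to 54 nt it was 0.84 and -0.51, against 0.93 and 0.49 at 45 nt. Regions at unlike levels are therefore compared, and the difference ran with level over all regions tested. With a mean probe length over 47 and up to 50 nt the median difference was -0.13 in chosen regions, 84.7% of them lower, and 0.053 in others, 39.4% of them lower. In chosen regions with a mean probe length over 50 and up to 54 nt the median difference was -0.14 (20 regions), while in the others of that class it was 0.19. At set-aside probes, on 5 arrays, the median difference was -0.19 in 507 chosen regions and -0.17 in all 12887 regions with such probes, and 91.7% and 86.4% were lower in PM2.5. At these probes 16 of the 507 chosen regions passed as lower, against 3.69% of all, and 0 passed as higher (limma, adjusted p under 0.05). The share at probes outside the choice was thus near the background.

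Within scanning days the sign was kept. On the day with control 1 and PM2.5 replicate 3 the median difference was -0.13 and 82.6% of chosen regions were lower in PM2.5, against 42.4% of all regions tested. On the day with controls 2 and 3 and PM2.5 replicate 2 it was -0.30, with 96.0% lower against 47.4%. PM2.5 replicate 1, alone on its day, gives no within-day value. Without that array the median difference was -0.24, and 98.4% were lower against 45.8%. With the scanning day as a block 49 chosen regions passed as lower, against 2% of all, and 0 as higher, against 6.92%. In that fit PM2.5 replicate 1, alone on its day, does not enter the difference, which comes from the other arrays on the days above. So few arrays limit that fit more than the main one. With array weights 199 passed as lower, against 7.57% of all, and 0 as higher, against 14.1%. With marked spots kept 6 passed as lower, against 0.25% of all, and 1 as higher, against 7.25%.

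The 3 chosen regions that fell in PM2.5 lay on chromosomes 7, 3 and 10. The chromosome 7 region, from 139481465 to 139482733, had control values of 1.22, 1.36 and 1.42 and PM2.5 values of 0.68, 0.81 and 0.88 (difference -0.54, standard error 0.11, limma adjusted p = 0.0435). The groups did not overlap at this region, which rested on 3 used probes of 45 nt. At its used probe of highest ratio, from 139482112 to 139482156, the values were 1.68, 1.88 and 1.99 on control arrays and 1.29, 1.24 and 1.25 on PM2.5 arrays. At that from 139481630 to 139481674 the groups overlapped, with 1.05, 0.96 and 0.93 against 0.55, 0.43 and 0.99. The last, from 139482531 to 139482575, had 0.93, 1.23 and 1.33 against 0.18, 0.76 and 0.39.

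The chromosome 3 region, from 3537245 to 3538967, had control values of 1.01, 1.19 and 1.25 and PM2.5 values of 0.61, 0.70 and 0.55 (difference -0.53, standard error 0.11, limma adjusted p = 0.0445). It rested on 7 used probes, of which 1, from 3537817 to 3537861, was below 0 on all 6 arrays. The chromosome 10 region, from 53190324 to 53192028, had control values of 1.14, 1.396 and 1.43 and PM2.5 values of 0.74, 0.88 and 0.75 (difference -0.53, standard error 0.12, limma adjusted p = 0.0476). Of its 4 used probes, that from 53191612 to 53191656 had the widest gap, with 1.60, 2.15 and 2.19 against 0.75, 1.11 and 0.55. At the first, from 53190472 to 53190516, the groups overlapped, with 0.72, 0.86 and 0.97 against 0.73, 0.87 and 0.76.

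At set-aside probes these 3 regions had differences of -0.21, -0.036 and -0.22 with adjusted p of 0.263, 0.854 and 0.236 (limma, 5 arrays). The 3 regions kept a lower mean in PM2.5 under all 21 alternative settings, and passed in 3, 5 and 4 of them. In many of these settings no other sign was possible. With no overlap between the groups, dropping or weighting arrays, or blocking by scanning day or slide, could not turn it. The replicate block and the trend and robust fit left the difference itself unchanged. Only the settings that altered the region values could have changed the sign. Without PM2.5 replicate 1, the array with most marked spots, none of these 3 passed (limma adjusted p of 0.0517, 0.0517 and 0.0553, differences of -0.49, -0.52 and -0.51). The 3 chosen regions that then passed as lower, against 0.156% of all, were others, and 0 were higher, against 1.84%. Without control 2 or control 3, which shared a scan identifier, 0 of the 568 passed, but 0 of all 14786 regions passed either (limma). At an unadjusted p under 0.05 (limma), 71 and 64 of the 568 were lower and 0 higher. Over all regions 505 and 443 were lower, and 1903 and 1656 higher. The count was also 0 without PM2.5 replicate 2 or 3, where 0 of all regions passed as lower, and 14 and 0 as higher (limma). At an unadjusted p under 0.05 (limma), 112 and 111 chosen regions were then lower, against 1046 and 951 of all, and 0 and 1 higher, against 2653 and 2412. Without control 1 there were 23 chosen regions lower, against 0.656% of all, and 0 higher, against 2.68%.

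A further 7 regions completed the 10 of smallest p, with differences from -0.57 to -0.42 and adjusted p from 0.052 to 0.0646 (limma), so none passed. They lay on chromosome 1 from 137414562, chromosome 16 from 19332916, chromosome 11 from 84363905, chromosome 5 from 89765259, chromosome 3 from 89354479, chromosome 19 from 58647044 and chromosome 8 from 49301939. Chromosome 8 showed the widest difference, with 1.25, 1.496 and 1.56 on control arrays and 0.87, 1.13 and 0.61 on PM2.5 arrays. In all 10 the groups did not overlap, which the choice by p favours. At set-aside probes all 10 had negative differences, from -0.35 to -0.036, and none passed there (limma adjusted p from 0.0856 to 0.854). At such probes 86.4% of all 12887 regions were lower in PM2.5, with a median difference of -0.17, so this count was near the background.

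The 39 chosen regions with a higher mean in PM2.5 reached a difference of 0.23 at most, and none passed. The median standard deviation between arrays of a group was 0.13 in controls and 0.12 in PM2.5, so most differences were of the order of the spread between arrays.

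The chosen regions with most used probes were the best sampled. On chromosome 10 from 62496873 to 62501214 there were 10 used probes, and the ratio was 0.81, 0.99 and 0.95 on control arrays and 0.61, 0.75 and 0.57 on PM2.5 arrays. On chromosome 8 from 113613200 to 113616343 there were 9, with 0.94, 1.15 and 1.13 on control arrays and 0.97, 0.76 and 0.86 on PM2.5 arrays. On chromosome 10 from 63570259 to 63572211 there were 8, with 1.00, 1.14 and 1.095 on control arrays and 0.93, 0.73 and 0.73 on PM2.5 arrays. Both chromosome 10 regions had each PM2.5 array below each control array, as did 36.1% of the 568 and 10.4% of all regions tested. None of the 3 passed (limma adjusted p from 0.142 to 0.262). Their set-aside means were between 0.17 and 0.71.

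Chosen regions lay on every chromosome from 1 to 20. Chromosome 19 had the highest share, with 27 of 299 regions or 9.03%, and chromosome 4 the lowest, with 18 of 809 or 2.22%. Chromosome 19 also had the highest share of regions with 45 nt used probes alone, at 10.7%, against 5.19% on chromosome 4 and 6.67% over all. Not every chromosome followed this order. Chromosome 13 had the lowest such share, 3.92%, with 4.96% of its regions chosen, and chromosome 20 had 7.95% with 3.29% chosen. On chromosome 19 all 27 chosen regions were lower in PM2.5, with a median difference of -0.19, and on chromosome 18 all 19 were. Chromosome 10 had the smallest median difference, -0.15, with 44 of 51 lower, and chromosome 6 the largest, -0.28, with 26 of 28 lower.

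Most chosen regions stood alone. With chosen regions within 100 kb of each other joined, 508 had no chosen neighbour, 23 groups held 2, and 4 groups held 3 or 4. The nearest tested region lay at a median of 38048.5 bp and had a median level of 0.039, against 31117 bp and -0.12 over all regions that could be chosen. This neighbour was itself chosen for 3.35% of the 568 and for 3.82% of all regions that could be chosen. The share of chosen neighbours was thus near that over all regions.

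On chromosome 9 from 85068005 to 85149534, 3 of 3 tiled regions were chosen, a span of 81.5 kb. Their mean levels were 0.82, 0.97 and 0.87, and their differences -0.40, -0.17 and -0.30 (limma adjusted p from 0.0757 to 0.369). On chromosome 7 from 12853035 to 12952844, 3 of 4 tiled regions were chosen, with mean levels of 0.87, 0.87 and 0.88, and the one between them had 0.037. On chromosome 10 from 15080913 to 15246297, 4 of 12 tiled regions were chosen, and the others ran from -1.83 to 0.63. On chromosome 3 from 3537245 to 3802228, 4 of 18 were chosen, the first of them being one of the 3 that fell in PM2.5, and the others ran from -1.69 to 0.65. The unchosen regions of the chromosome 10 and 3 stretches thus ranged from low to high ratios.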

How the data were processed

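Spot intensities were deposited by the authors as scanner output. Per the file headers, Feature Extraction 11.0.1.1 subtracted background from each intensity, removed spatial trends and balanced the dyes linearly, and probe positions are on rn4. The table of log2 values deposited by the authors served as an alternative; its direction follows Cy5 over Cy3, while its scale and smoothing are unknown. Cy5 held immunoprecipitated and Cy3 input DNA on all arrays, per the labels.

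The log2 ratio of processed signals was centred on the probes used on all arrays and averaged per region. The test was limma 3.58.1 (lmFit, then eBayes) in R 4.3.3, PM2.5 minus control, with Benjamini-Hochberg adjustment over 14786 regions and a threshold of 0.05. The fit was tested on simulated data. Regions named were the 10 of highest mean ratio, the 10 of smallest p, the 3 with most used probes, groups of at least 3 within 100 kb, and 3 on either side of the threshold. The regions, lists and tests were chosen with earlier results of these data known. Reading set-aside probes was added after seeing the data. No sequence is printed, since no genome of the files' build was used here. The slide block took the scan identifier of the file headers as the slide. It used a correlation of 0.538 from variances within and across slides so defined, as duplicateCorrelation returned none. Replicate numbers were shared between groups, and deviations of same-numbered samples correlated at -0.0081, 0.11 and -0.15 over regions, so they were not treated as pairs. Figures were drawn with matplotlib 3.10.9.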

Additional observations from a re-analysis of the deposited data

How the results depend on the processing

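The number of chosen regions followed the settings. It was 107 with each array centred on its own unmarked probes, 147 with normexp correction (offset 50), 134 with both channels well above background, 122 with marked spots kept and 157 in the authors' values. Of these, 107, 146, 77, 46 and 139 were among the 568. It was 953 at a threshold of 0.4, 109 at 0.75 and 183 with at least 5 used probes. Without 1 array it ran from 569 to 707. The number lower in PM2.5 was 3 as designed. It was 0 with each array centred on its own probes, with each probe length centred, and with scale or quantile normalization. With normexp, both channels above background, the authors' values, a random slide block, and trend and robust estimation it was also 0. Over all regions 7 passed as lower with own centring and 0 in the rest of these settings. At an unadjusted p under 0.05 (limma), the counts in this order were 6, 79, 8, 15, 150, 87, 17, 104 and 142. Over all regions they were 92, 1124, 505, 794, 1160, 796, 328, 694 and 1221. It was 6 with marked spots kept, where 1 was higher, 49 with the scanning day as a block, 199 with array weights (7.57% of all regions) and 16 at set-aside probes. Without 1 array it ran from 0 to 23. With the replicate number as a block it was 0, with 147 at an unadjusted limma p under 0.05 against 1104 of all regions. Over all regions 133 were then higher and 13 lower, against 320 and 32 without this block. The median difference of the chosen regions, -0.19, was -0.0023 with own centring, -0.023 with quantile normalization, -0.081 with marked spots kept and -0.026 in the authors' values, and the sign turned with scale normalization, at 0.023. Of the 10 regions of smallest p, 3 passed as designed. Under the replicate block, own centring, length centring, scale, quantile, normexp, both channels, authors' values, slide block or trend and robust estimation, 0 passed. With region medians 1 did, with the scanning day or array weights 10 did, and without 1 array 0 to 5 did. The causes were not tested, except that centring shifts each region of an array equally. Regions rest on a median of 4 used probes, which limits each value.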

Other observations

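The X chromosome and unplaced sequences lay outside the choice. Of 425 X regions with at least 3 used probes, 13 had a mean ratio of at least 0.5 on all 6 arrays, or 3.06%, against 4.76% on chromosomes 1 to 20. These 13 had a median level of 0.81 and a median difference of -0.18, with 11 lower in PM2.5. On average 35.5% of the used probes of an X region were 45 nt long, against 42.4% on chromosomes 1 to 20. Of 74 regions on unplaced sequence 3 reached 0.5 on all arrays, and all 3 were lower in PM2.5.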
